A study of Sus scrofa with 34 samples.

Results

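The subunits, inhibitors and kinases of the NF-kB pathway were followed as 10 genes, chosen by symbol alone: the subunits NFKB1, NFKB2, RELA, RELB and REL, the inhibitors NFKBIA and TNFAIP3, and the kinase genes IKBKB, CHUK and IKBKG. All 10 were found among the 25880 genes of the count tables. RNA was sequenced from the ileum of 10 weaned crossbred piglets (Landrace, Large White and Pietrain stock) and from the liver of 24, on day 28 of a feeding trial. The trial held males and females in equal number. The labels do not give the sex of each pig, and no comparison was adjusted for sex. The ileum came from 5 pigs on the control diet, which was a basal feed, and 5 on the same feed with PFA. This phytogenic feed additive is a commercial product of oregano and caraway oils with carvacrol, methyl salicylate and menthol. The liver came from 6 pigs on each of 4 diets, control, PFA, OO and OO + PFA, where OO is the basal feed with 10% oxidized rapeseed oil, a model of oxidative stress. The feed without it held no matching amount of fresh oil, and the oil diets had more calculated energy. Effects of oxidation and of the added fat and energy cannot be told apart. The 10 pigs of the ileum also gave a liver library. Every diet had its own pen, and effects of the pen and of the diet cannot be told apart. Pigs are named by diet (C, P, OO, OP for OO + PFA) and number.

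NF-kB is a family of dimeric transcription factors that inhibitors of the IkB family hold in the cytoplasm. Tumor necrosis factor, interleukin-1 and microbial products activate the IKK complex, which marks IkB for breakdown and frees dimers of RELA or REL with the p50 product of NFKB1. A slower branch, downstream of lymphotoxin and CD40, processes NFKB2 so that it acts with RELB. The pathway switches itself off, since NFKBIA and TNFAIP3 are among its own targets, and it is active in the epithelium and lymphoid tissue of the gut and in hepatocytes and macrophages of the liver.

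Between 18772230 and 24338165 read pairs were counted on genes per ileum library and between 18738055 and 42446834 per liver library. The members had 98 to 2239 counts in the ileum libraries and 53 to 3203 in the 23 liver libraries used. Expression is given as CPM, read counts scaled by edgeR to the size of the library, separately for each tissue. CPM is not scaled by gene length, so levels are compared between pigs and never between genes. The liver library of pig OP-77, in which 36.7% of the counted read pairs were on no gene, on several genes or aligned to several places, was left out. The study left it out as well. The 5 epithelial markers summed to between 6948 and 10347 CPM in the ileum and to between 279 and 872 in the liver. Hepatocyte markers (ALB, APOA1, TTR, SERPINA1 and APOB) summed to between 3099 and 7638 CPM in the ileum and to between 71673 and 163462 in the liver. In the ileum 4 of 5 had counts: TTR had none in any library, and SERPINA1 was at 0 in all PFA pigs. The part of each marker in the ileum sum was not taken, so that sum is not read as hepatocyte RNA. 3 ileum libraries stood apart. Pig C-80 had 336 CPM of B cell markers (4 measured), against 8.32 to 18.5 in the other 9 pigs. The GC slope of a library, which is the gain in log2 expression over the mean of its tissue per 10% more GC in a gene, was steepest in a pair of PFA pigs in opposite directions, P-134 at 0.37 and P-138 at -0.37, against -0.23 to 0.26 in the other pigs. Differences of a member in the ileum that move by over 1.5 times without one of these pigs are given both ways.

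On assembly Sscrofa11.1, NFKB1 lies on chromosome 8 (118391010 to 118478927), NFKB2 on chromosome 14 (113406412 to 113414177), RELA on chromosome 2 (6594869 to 6602684), RELB on chromosome 6 (51444670 to 51480350) and REL on chromosome 3 (80861862 to 80912233). NFKBIA lies on chromosome 7 (64508119 to 64510754) and TNFAIP3 on chromosome 1 (26474158 to 26489771). IKBKB lies on chromosome 17 (11289607 to 11348557), CHUK on chromosome 14 (111316178 to 111351669) and IKBKG on chromosome X (125035575 to 125056445). The 250 bases before the RefSeq start of each gene were searched on both strands for the 10-letter NF-kB consensus. A match was found before 5 of the 10 members (NFKBIA, TNFAIP3, RELB, IKBKB and IKBKG), and before 2736 of 19547 protein-coding genes (14.0%). No match was found in the windows of NFKB1, NFKB2, RELA, REL and CHUK, and the gene models of NFKB1, RELA, NFKBIA and CHUK begin at their first coding base, so their windows may not hold the promoter. The following windows of 30 bases from RefSeq are shown because they hold all matches found before the members. They are written 5′ to 3′ on the strand of the gene, with the match in capitals.
NFKBIA (chr7:64507916-64507945, plus strand): tgactggcttGGAAATTCCCcgagcttgac
TNFAIP3 (chr1:26489945-26489974, minus strand): gactcacgcgGGGACACCCCggggcggggc
RELB (chr6:51444550-51444579, plus strand): gtgatgcgtgGGGGTTTTCCcattccccta
RELB (chr6:51444622-51444651, plus strand): cggcggcgccGGGGAATTCCgccgccccgc
IKBKB (chr17:11289395-11289424, plus strand): gcgggggctGGGAAATTCCCcccataataa
IKBKB (chr17:11289457-11289486, plus strand): ggctgggtgaGGAAATCCCCatctacccgg
IKBKB (chr17:11289514-11289543, plus strand): tacttctaaaGGAAACTCCCgccttttacg
IKBKG (chrX:125035439-125035468, plus strand): tccctggcctGGGAACTTCCacaggctgcc
The match began 193 bases before the start of NFKBIA, 193 before that of TNFAIP3, 110 and 38 before that of RELB, and 203, 140 and 83 before that of IKBKB. The first window of IKBKB holds overlapping matches on both strands. A match of letters is a description of the sequence and not a binding site.

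Comparison of PFA and control in the ileum addressed what the additive does in the gut of piglets without the oil. NFKBIA, which encodes IkB-alpha, the main inhibitor of RELA and REL, was lower in every PFA pig than in every control pig. NFKBIA stood at 57.6 (C-100), 58.5 (C-110), 61.0 (C-71), 75.8 (C-80) and 78.2 CPM (C-92) in control pigs. In PFA pigs NFKBIA stood at 35.2 (P-138), 41.9 (P-95), 42.3 (P-134), 44.4 (P-75) and 52.4 CPM (P-107). The control mean was 66.2 ± 9.97 (SD, n = 5) and the PFA mean 43.2 ± 6.19 (SD, n = 5), a log2 fold change of -0.61 (SE, standard error, 0.13) or 1.53-fold lower. All PFA pigs lay below all control pigs in 15 of the 14300 genes tested (0.105%), and NFKBIA was the member among them. The groups did not overlap in either direction for 1 of the 10 members and for 0.559% of all genes. The difference of NFKBIA did not pass correction over all genes (unadjusted p = 0.000683, adjusted p = 0.991, edgeR's quasi-likelihood test, Benjamini-Hochberg adjusted). With DESeq2 the adjusted p of NFKBIA was 0.0681. The difference was -0.56 without pig C-80, -0.61 without pig P-134 and -0.55 without pig P-138.

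None of the 10 members was called between PFA and control at an adjusted p of at most 0.05 (edgeR's quasi-likelihood test), against 0.0% of all genes. At an unadjusted p under 0.05 there were 2 members, NFKBIA and RELB, and 401 genes of all (2.8%), and DESeq2 called 0 members and 4 genes. Of the 10 members 8 had a lower mean with PFA and 2 a higher one, beside 6674 lower and 7626 higher of the 14300 genes tested. The median log2 fold change of the members was -0.18, against 0.02 over all genes tested. The study listed NFKB2, NFKBIA, TNFAIP3, IKBKB and IKBKG among the leading genes of a pathway test on these same ileum libraries, so their direction is not independent evidence.

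Among the subunits the largest differences were in RELB and NFKB2, the pair of the slower branch. RELB stood at 6.60 (C-110), 10.2 (C-92), 13.8 (C-100), 21.6 (C-80) and 22.8 CPM (C-71) in control pigs and at 5.13 (P-138), 6.75 (P-107), 8.41 (P-75), 8.68 (P-95) and 12.8 CPM (P-134) in PFA pigs. The groups overlapped, as C-110 lay within the range of the PFA pigs and P-134 above C-92. The log2 fold change of RELB was -0.84 (SE 0.35, unadjusted p = 0.0324, adjusted p = 0.991, edgeR's quasi-likelihood test). It was -0.67 without pig C-80 (unadjusted p = 0.0858, edgeR) and -1.05 without pig P-134 (unadjusted p = 0.0125, edgeR). Corrected for GC content it was -0.48 (unadjusted p = 0.0266, edgeR), and RELB is the member with the highest GC content. NFKB2, which encodes p100, stood between 29.6 (C-110) and 71.5 CPM (C-80) in control pigs and between 20.8 (P-138) and 45.9 CPM (P-134) in PFA pigs. The highest NFKB2 level was in the pig with the most B cell markers. The log2 fold change of NFKB2 was -0.51 (SE 0.26, unadjusted p = 0.0762), -0.30 without pig C-80 and -0.33 after correction for GC content. Sums of the 4 measured T cell markers (221 to 269 CPM in the control, 214 to 319 with PFA) and of the 7 macrophage markers (165 to 452 and 221 to 414) overlapped between the groups. The part of lymphoid cells in these differences was not tested, and in a whole tissue fewer cells of a type and less RNA per cell cannot be told apart.

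The 3 remaining subunits had nearly equal means in both groups. RELA, the main activating subunit, stood at 51.4 ± 7.61 CPM (SD, n = 5) in the control and 50.5 ± 9.32 (SD, n = 5) with PFA, a log2 fold change of -0.03 (SE 0.15). NFKB1, the precursor of p50, stood at 75.4 ± 7.12 CPM (SD, n = 5) and 75.7 ± 3.65 (SD, n = 5), a log2 fold change of 0.01 (SE 0.09). REL, the subunit best known from lymphocytes, stood at 51.9 ± 12.7 CPM (SD, n = 5) in the control and 49.8 ± 11.1 (SD, n = 5) with PFA, and its highest level, 72.8 CPM, was again in pig C-80. The sign of these 3 small differences changed with single pigs left out, and that of RELA and NFKB1 after correction for GC content (0.20 and -0.042).

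TNFAIP3 encodes A20, a ubiquitin-editing enzyme that shuts the pathway down upstream of IKK. It ranged from 36.3 (C-110) to 53.3 CPM (C-100) in the control and from 33.1 (P-75) to 49.7 CPM (P-107) with PFA, and the groups overlapped. Its log2 fold change was -0.20 (SE 0.14, unadjusted p = 0.165).

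Of the kinases, IKBKG encodes NEMO, the regulatory subunit of the IKK complex. IKBKG stood at 19.8 (C-110), 32.3 (C-92), 34.2 (C-80), 35.5 (C-100) and 38.2 CPM (C-71) in control pigs, and at 14.5 (P-138), 20.3 (P-75), 23.1 (P-107), 23.5 (P-95) and 42.5 CPM (P-134) in PFA pigs. Pig P-134 held the highest level of both groups, and the other 4 PFA pigs lay below 4 of the 5 control pigs. The log2 fold change of IKBKG was -0.37 (SE 0.27, unadjusted p = 0.193) in all pigs and -0.65 (SE 0.21, unadjusted p = 0.00906) without pig P-134, with an adjusted p of 0.329 (edgeR's quasi-likelihood test). It was -0.23 without pig P-138, which held the lowest level, and -0.20 after correction for GC content. IKBKB, the catalytic kinase that phosphorylates IkB-alpha, ranged from 38.8 to 58.2 CPM in the control and from 37.9 to 58.6 CPM with PFA, the last in P-134, with a log2 fold change of -0.15 (SE 0.15), -0.27 without P-134, -0.099 without P-138, -0.095 without C-80 and -0.068 after correction for GC content. CHUK, the catalytic kinase of the slower branch, ranged from 28.1 to 31.7 CPM in the control and from 24.5 (P-134) to 38.9 CPM (P-138) with PFA, with a log2 fold change of 0.10 (SE 0.13), 0.18 without P-134, 0.023 without P-138 and -0.0094 after correction for GC content.

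**Figure D1:**
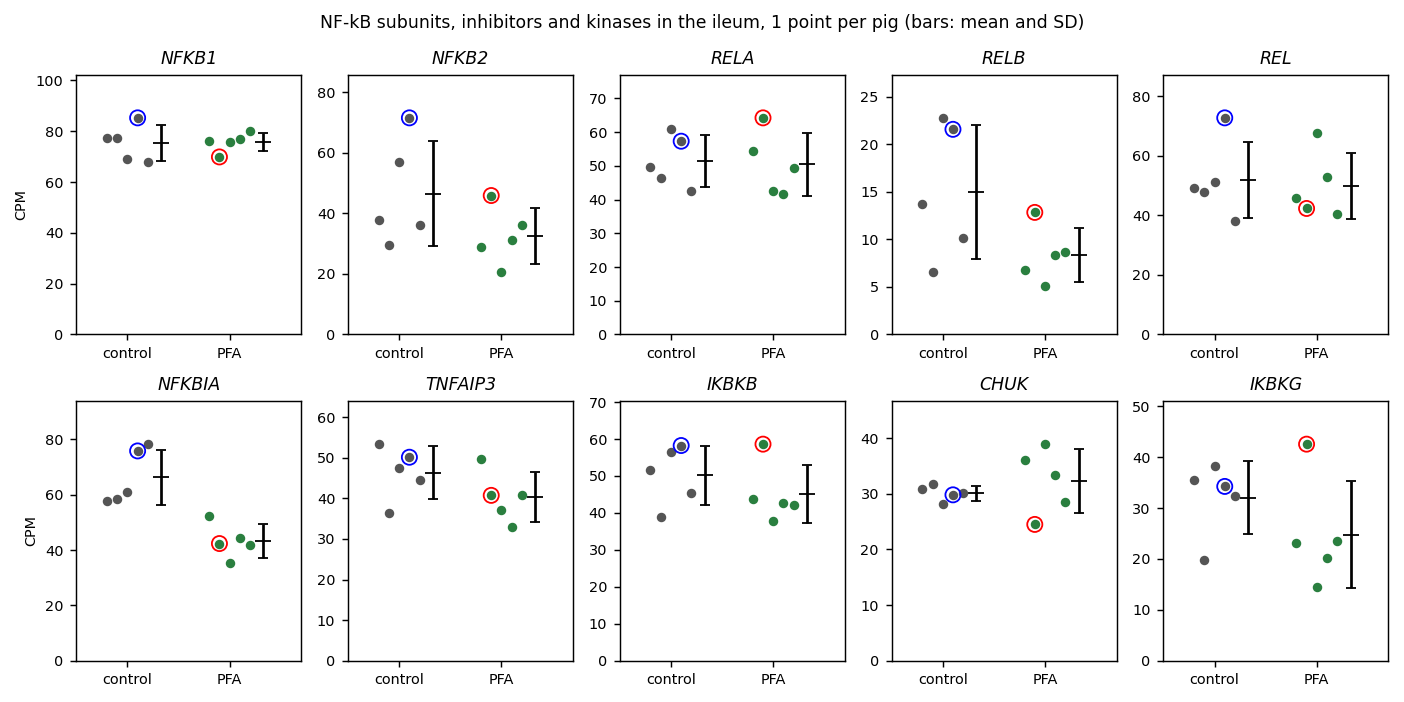
Expression (CPM, vertical axis from 0) of the 10 members in the ileum of 5 control and 5 PFA pigs, with 1 point per pig and the mean ± SD beside each group; pig C-80 is ringed in blue and pig P-134 in red. NFKBIA is the panel in which the groups do not overlap (35.2 to 52.4 CPM with PFA, 57.6 to 78.2 CPM in the control), and P-134 has the highest IKBKG level of all (42.5 CPM).

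The other genes of the pathway were taken from 5 lists with 82 genes, of which 69 were tested in the ileum. None of the 69 was called, none had an unadjusted p under 0.05, and 45 of 69 had a lower mean with PFA (median -0.07 on the log2 scale). Of all 14300 genes tested, 6674 were lower. By list, 10 of 12 other subunits, IkB proteins and kinases were lower, as were 8 of 12 ligands and receptors, 11 of 18 adaptors and ubiquitin enzymes, 4 of 9 deubiquitinases and partners of A20, and 12 of 18 target genes. These counts were not taken after correction for GC content, and no fall of the pathway is read from them. The smallest unadjusted p belonged to TLR4, the receptor for bacterial lipopolysaccharide, with a log2 fold change of 0.24 (SE 0.12, unadjusted p = 0.0626, adjusted p = 0.991). TNFRSF13C, the receptor for the B cell factor BAFF, had a log2 fold change of -1.84 (SE 0.91) and one of 0.38 without pig C-80. Target genes with the smallest p were CXCL10 (-0.41, SE 0.27), a chemokine induced by interferon and NF-kB, CXCL8 (0.29, SE 0.24), which attracts neutrophils, and CCL2 (0.27, SE 0.29), which attracts monocytes.

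In the liver, the comparison of the 4 diets addressed the response to oxidized oil and whether PFA changes it. None of the 10 members was called in any of the 7 liver comparisons (edgeR's quasi-likelihood test), and DESeq2 called none either. The background share called was 0.0% of 13831 genes for PFA against control, 2.71% for OO against control, 5.08% for OO + PFA against control, 0.0% for OO + PFA against OO, 11.8% for the oil effect over both PFA levels, 0.0% for the interaction of oil and PFA, and 3.66% across the 4 diets. At an unadjusted p under 0.05 there were 1, 1, 0, 2, 3, 2 and 3 of the 10 members in the same order, beside 11.0%, 21.4%, 22.6%, 8.5%, 27.8%, 13.6% and 25.2% of all genes, and no result about the members is read from these counts. In the 4 pairwise comparisons no member was free of overlap between the diets, whereas 0.983%, 2.24%, 9.0% and 0.774% of all genes were. The median log2 fold change of the members was -0.15 for PFA against control, -0.05 for OO against control and 0.09 for OO + PFA against control, beside 0.03, 0.06 and -0.01 over all genes. It was 0.27 for OO + PFA against OO, 0.02 for the oil effect and 0.38 for the interaction, beside -0.02, 0.01 and -0.05. The 3 comparisons with the control share its 6 pigs.

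The 2 inhibitors had their lowest and highest values in different diets. NFKBIA ranged from 35.8 to 69.6 CPM (median 49.2, n = 6) in the control, from 28.6 to 51.9 (median 36.9, n = 6) with PFA, and from 29.8 to 45.1 (median 35.4, n = 6) with OO. With OO + PFA, NFKBIA stood at 30.4 (OP-105), 40.0 (OP-79), 45.7 (OP-126), 67 (OP-98) and 68.8 CPM (OP-137). OO + PFA thus held both a pig among the lowest and 2 of the highest levels, and the diets overlapped. Each single addition had a lower NFKBIA mean than the control, by a log2 fold change of -0.41 (SE 0.20, unadjusted p = 0.0476, adjusted p = 0.45) for PFA and -0.46 (SE 0.20, unadjusted p = 0.0302, adjusted p = 0.183) for OO, edgeR's quasi-likelihood test. Against the control, OO + PFA differed by 0.00 (SE 0.21), and against OO by 0.46 (SE 0.21, unadjusted p = 0.0381, adjusted p = 0.575). Corrected for GC content these 2 values were -0.32 and 0.25. The interaction of oil and PFA for NFKBIA was 0.87 on the log2 scale (SE 0.29, unadjusted p = 0.00585) and did not pass correction (adjusted p = 0.218, edgeR's quasi-likelihood test). It ranged from 0.73 to 1.01 with single pigs left out, with adjusted p from 0.146 to 0.421, and was 0.57 after correction for GC content.

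TNFAIP3 ranged from 9.48 to 19.1 CPM (median 14.1, n = 6) in the control, from 11.8 to 19.0 (median 14.2, n = 6) with PFA and from 9.34 to 12.9 (median 11.1, n = 6) with OO. With OO + PFA, TNFAIP3 stood at 12.4 (OP-105), 12.9 (OP-79), 15.4 (OP-126), 17.5 (OP-137) and 21.1 CPM (OP-98). The OO group was narrow, and its highest pig (OO-97) lay just above OP-105 and below OP-79. The log2 fold change of TNFAIP3 between OO + PFA and OO was 0.51 (SE 0.18, unadjusted p = 0.00817, adjusted p = 0.451, edgeR's quasi-likelihood test), the smallest unadjusted p of a member between 2 liver diets. For OO against control it was -0.34 (SE 0.17, unadjusted p = 0.055).

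Among the subunits, RELB had the largest difference with the oil. It ranged from 2.66 to 5.90 CPM (median 3.81, n = 6) in the control, from 2.47 to 4.64 (median 3.37, n = 6) with PFA, from 2.0 to 9.19 (median 4.27, n = 6) with OO and from 4.09 to 8.12 (median 6.69, n = 5) with OO + PFA. The oil effect over both PFA levels was 0.49 on the log2 scale for RELB (SE 0.22, unadjusted p = 0.0346, adjusted p = 0.145, edgeR's quasi-likelihood test), and it turned to -0.19 after correction for GC content. NFKB2 ranged from 11.1 CPM (OO-97) to 30.6 CPM (OP-137), with an oil effect of 0.21 (SE 0.15) that turned to -0.12 after correction for GC content. RELA ranged from 52.4 CPM (P-107) to 82.6 CPM (OP-126), with an oil effect of 0.04 (SE 0.09). After correction for GC content RELA became a called gene in the other direction, at -0.36 for the oil effect (adjusted p = 0.0264) and -0.51 for OO + PFA against control (adjusted p = 0.0378). NFKB1 had an oil effect of -0.10, with the smallest standard error of the subunits (0.06) and a value of -0.058 after correction for GC content, and its 5 OO + PFA pigs lay between 25.8 and 27.2 CPM. REL ranged from 6.19 CPM (OO-102) to 14.7 CPM (OO-97), both on OO, with an oil effect of 0.00 (SE 0.12), 0.075 after correction for GC content.

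Among the kinases, IKBKG had the smallest p across the 4 diets (unadjusted p = 0.0151, adjusted p = 0.116, edgeR's quasi-likelihood test). IKBKG ranged from 15.2 to 35.8 CPM (median 20.9, n = 6) in the control, from 11.4 to 23.4 (median 16.2, n = 6) with PFA and from 12.9 to 32.2 (median 20.8, n = 6) with OO. With OO + PFA, IKBKG stood at 23.5 (OP-98), 26.8 (OP-126), 28.6 (OP-105), 33.9 (OP-137) and 41.6 CPM (OP-79). Both diets without PFA reached into that range. OO + PFA and PFA, a pair of diets that was not tested and was singled out after the values were seen, did not overlap in IKBKG (higher with OO + PFA, from 23.5 CPM, than with PFA, up to 23.4 CPM) or in NFKB1 (lower). They did not overlap in 6.49% of all genes, with OO + PFA higher in 4.69%, and the GC slopes of these diets overlapped little (0.04 to 0.49 and -0.47 to 0.07). The oil effect of IKBKG was 0.41 (SE 0.17, unadjusted p = 0.0239, adjusted p = 0.116), and it was called without pig C-80 (adjusted p = 0.0428) or without pig OO-97 (adjusted p = 0.049). After correction for GC content it was 0.02. The interaction of oil and PFA for IKBKG was 0.93 (SE 0.34, unadjusted p = 0.0121, adjusted p = 0.254), and 0.68 after correction for GC content (unadjusted p = 0.00135, adjusted p = 0.112). With all 24 libraries, pig OP-77 included, the 4-diet test called IKBKG (adjusted p = 0.0416). IKBKB ranged from 11.9 CPM (P-95) to 24.8 CPM (OO-99), with an oil effect of 0.19 (SE 0.09, unadjusted p = 0.0435, adjusted p = 0.166), 0.047 after correction for GC content. CHUK ranged from 7.49 CPM (C-92) to 13.9 CPM (P-95), and its largest difference between 2 diets was 0.26 (SE 0.14) for PFA against control, 0.14 after correction for GC content.

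**Figure D2:**
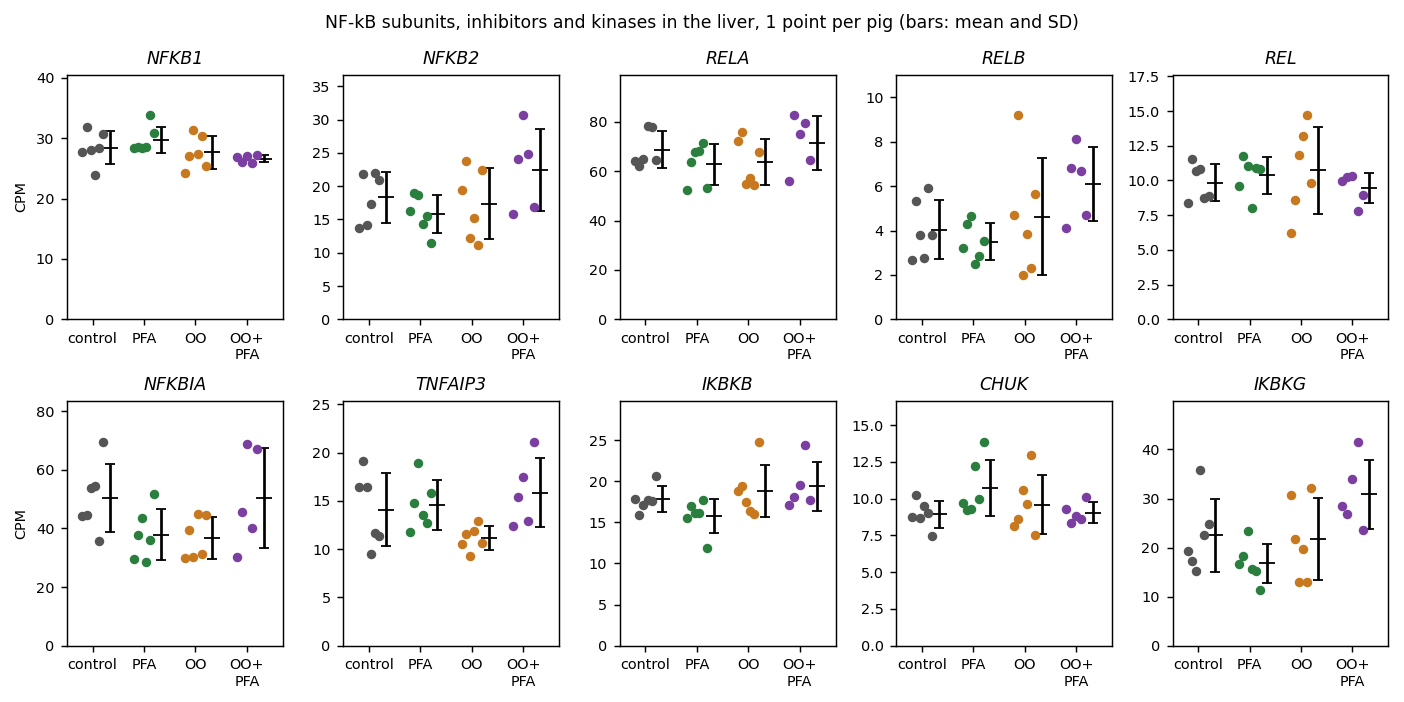
Expression (CPM, vertical axis from 0) of the 10 members in the liver of 6 control, 6 PFA, 6 OO and 5 OO + PFA pigs, with 1 point per pig and the mean ± SD beside each diet. NFKBIA has its highest median in the control (49.2 CPM) and IKBKG with OO + PFA (28.6 CPM), and in both genes the OO + PFA pigs overlap with the control pigs.

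Library GC slopes and marker sums are given for the liver diets as values, with no test. The slope, in log2 units per 10% of GC, had medians of -0.11 in the control, -0.12 with PFA, 0.07 with OO and 0.17 with OO + PFA. The sum of the 7 macrophage markers had medians of 457 CPM in the control (343.9 to 714), 706 with PFA (361 to 879), 712 with OO (540 to 1237) and 899 with OO + PFA (622 to 1337). The 4 measured T cell markers summed to medians of 26.6, 22.1, 30.4 and 18.4 CPM in the same order, the 5 epithelial markers to 579, 571, 412 and 440, and the 4 measured B cell markers to 7.73, 5.54, 7.05 and 6.72, and each sum overlapped between the diets. Their part in the differences of IKBKG and RELB beyond the GC correction was not tested.

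Of the 69 other pathway genes tested in the liver, 12 were called for the oil effect over both PFA levels (edgeR's quasi-likelihood test, Benjamini-Hochberg adjusted), 10 higher and 2 lower, or 17.4% against 11.8% of all genes. These shares belong to the fit without GC correction, after which 9 of the 12 were no longer called. VCAM1, an endothelial adhesion molecule and a classic target of NF-kB, had the smallest p. It ranged from 15.1 to 58.4 CPM in the control, from 19.9 to 39.7 with PFA, from 12.7 to 20.6 with OO and from 12.8 to 17.2 with OO + PFA, so that pigs fed the oil lay at the low end. The oil effect on VCAM1 was -0.86 (SE 0.17, adjusted p = 0.00286, edgeR's quasi-likelihood test). The other gene that fell was TAB3, an adaptor of the kinase TAK1 (-0.46, SE 0.14, adjusted p = 0.0414).

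The 10 genes that rose with the oil came from every list. They included the inhibitors NFKBIB (1.08, SE 0.28, adjusted p = 0.0182) and NFKBIE (0.61, SE 0.15, adjusted p = 0.0157), which hold NF-kB in the cytoplasm as NFKBIA does. TNIP2, a partner of A20, rose by 1.31 (SE 0.35, adjusted p = 0.0219), IRAK1, a kinase below the interleukin-1 receptor, by 0.89 (SE 0.26, adjusted p = 0.0285), and TAB1, an activator of TAK1, by 0.72 (SE 0.21, adjusted p = 0.0318). LTBR, the lymphotoxin receptor, rose by 0.45 (SE 0.13, adjusted p = 0.0281), and TRAF2, SHARPIN and RBCK1, which serve ubiquitin signaling at the tumor necrosis factor receptor, rose by 1.25, 1.12 and 0.54. IER3, an early-response target, rose by 1.15 (SE 0.35, adjusted p = 0.0377). With single pigs left out, 3 of the 12 genes, NFKBIB, NFKBIE and VCAM1, were called in each of 23 fits. The number of the 12 still called was lowest without pig OO-102 (3) and OO-130 (4), was 5 without C-100, P-107 or OP-79, and was 12 in 4 fits. It was 6 without C-71, C-110 or P-95, and 7 without P-67 or OO-99, and 8 without P-75 or OP-126. After correction for GC content 3 of the 12 genes, TAB3, TNIP2 and VCAM1, were still called. The exons of the 9 genes that were lost ranged in GC content from 59.4% (IER3) to 69.8% (SHARPIN).

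For OO + PFA against control, 4 of the 69 genes were called (5.80% against 5.08% of all genes): VCAM1 was lower and TAB1, IRAK1 and TNIP2 were higher. None of the 4 was called without pig C-71, C-100, C-110, OP-79 or OP-126, and 1 was, VCAM1, without C-85 or OP-137. TNIP2 and VCAM1 alone were called without C-92, P-67, P-75, OP-98 or OP-105 and with a term for how a library was titled. Titles of liver libraries begin with PigLiv or PL, spread unevenly over the diets, and of the OO + PFA libraries used only OP-137 had PL. What these forms stand for is not given. For OO against control VCAM1 was the single gene called (-0.84, SE 0.23, adjusted p = 0.0487, edgeR), or 1.45% of the 69 against 2.71% of all genes. That call was lost with all 24 libraries (adjusted p = 0.0656), with no filter on low counts (0.0606), with the title term (0.0668), with the 2 diets alone (0.125) and in 18 of 23 fits without 1 pig, and the difference was -0.54 without pig C-71. No pathway gene was called for PFA against control (edgeR's quasi-likelihood test), where 6 had an unadjusted p under 0.05 (8.70% against 11.0% of all genes), for OO + PFA against OO, where 5 had (7.25% against 8.5%), or for the interaction, where 8 had (11.6% against 13.6%). Across the 4 diets CXCL2, IER3 and VCAM1 were called (adjusted p = 0.0222, 0.0222 and 0.0236, edgeR's quasi-likelihood test), or 4.35% of the 69 against 3.66% of all genes. CXCL2, a neutrophil chemokine, lay between 0.19 and 2.37 CPM in all pigs of the other 3 diets and reached 8.72 CPM in pig OP-98. IER3 ranged from 0.90 to 6.91 CPM in the other 3 diets and from 1.40 to 17.7 CPM (OP-137) with OO + PFA. OP-98 and OP-137 were also the pigs with the highest NFKBIA and TNFAIP3 levels on that diet. Without pig OP-98 neither CXCL2 nor IER3 was called across the diets (adjusted p = 0.118 and 0.0543, edgeR), and IER3 was not called without OP-126 (adjusted p = 0.0513) or OP-137 (adjusted p = 0.107). NFKBIZ, a nuclear IkB protein, and NFKBID, another, had interactions of 0.91 (SE 0.31, adjusted p = 0.223) and 0.92 (SE 0.30, adjusted p = 0.217), close to that of NFKBIA.

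Ileum and liver of the same 5 control pigs were compared on a CPM scale shared by both tissues, which gives other values than the scales above. Of the 10 members 8 differed at an adjusted p of at most 0.05 (edgeR's quasi-likelihood test, Benjamini-Hochberg adjusted), 6 higher in the ileum and 2 lower, against 69.5% of the 14982 genes tested. Groups did not overlap for 4 of the 10 members and for 56.4% of all genes. The median log2 fold change of the members was 0.35 and that of all genes 0.05. A member that differs between 2 organs is thus the common case, and the direction of each is described below.

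RELA and NFKBIA, the subunit and its inhibitor, were lower in the ileum. RELA stood at 28.9 to 41.1 CPM in the ileum and 91.7 to 114 in the liver, a log2 fold change of -1.48 (SE 0.14, adjusted p = 7.04e-09), or 2.79-fold lower in the ileum. NFKBIA stood at 39.0 to 53.2 CPM in the ileum and 64.0 to 103 in the liver, a log2 fold change of -0.79 (SE 0.16, adjusted p = 0.0002). Neither gene overlapped between tissues. REL had the opposite pattern, with 25.9 to 50.4 CPM in the ileum and 12.1 to 17.0 in the liver (1.27, SE 0.17, adjusted p = 1.09e-06). CHUK was also free of overlap, at 18.9 to 21.1 CPM in the ileum and 11.1 to 15.1 in the liver (0.65, SE 0.15, adjusted p = 0.000487). After correction for GC content these differences were -1.21 for RELA, -0.52 for NFKBIA, 0.82 for REL and 0.28 for CHUK.

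The other 4 called members were higher in the ileum with overlapping groups. RELB had a log2 fold change of 0.93 (SE 0.31, adjusted p = 0.0109), TNFAIP3 of 0.57 (SE 0.18, adjusted p = 0.00839), IKBKB of 0.39 (SE 0.14, adjusted p = 0.0189) and NFKB1 of 0.30 (SE 0.10, adjusted p = 0.0135), edgeR's quasi-likelihood test. With single pigs left out, RELB was lost without pig C-71 or C-80, IKBKB without C-71, C-80 or C-100, and NFKB1 without C-80 or C-100. NFKB2 (0.30, SE 0.24, adjusted p = 0.268) and IKBKG (-0.59, SE 0.27, adjusted p = 0.0556) were not called. With correction for GC content IKBKB was at 0.60 and both of these genes were called, NFKB2 at 0.52 (adjusted p = 0.00507) and IKBKG at -0.31 (adjusted p = 0.0377). Tissues also differ in their mixture of cell types, and its part in these differences was not tested. The study reported a higher minimum RNA quality for the ileum than for the liver. Effects of the tissue and of the preparation of its libraries cannot be told apart, here and in the other comparisons of the tissues.

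**Figure D3:**
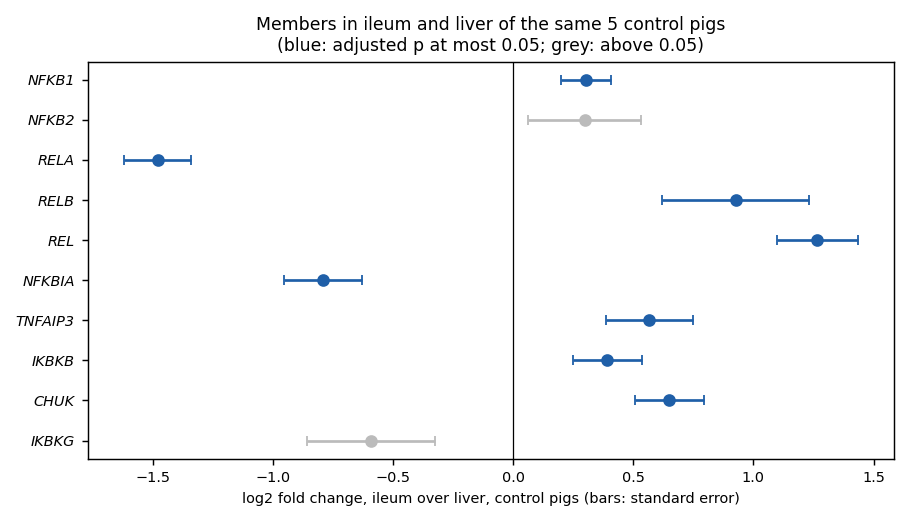
Log2 fold change of ileum over liver in the same 5 control pigs (horizontal axis) for each member, with the standard error as a bar; blue marks an adjusted p of at most 0.05 and grey one above it. RELA (-1.48) and REL (1.27) lie at the ends, and the grey points are NFKB2 and IKBKG.

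Of the 70 other pathway genes tested between the tissues, 46 were called (65.7% against 69.5% of all genes), 34 higher and 12 lower in the ileum. CXCL8 was 61.3-fold higher in the ileum (5.94 on the log2 scale, SE 0.37, adjusted p = 8.84e-12), and BIRC3, an inhibitor of apoptosis that ubiquitinates RIPK1, was 3.11-fold higher (1.63, SE 0.16, adjusted p = 1.07e-08). The receptor for interleukin-1, IL1R1, was 27.6-fold lower in the ileum (-4.79, SE 0.33, adjusted p = 4.96e-11). TNFRSF11A, the receptor RANK of the slower branch, was 5.77-fold higher there (2.53, SE 0.22, adjusted p = 1.71e-09). Among inhibitors, NFKBIE and NFKBIZ were higher in the ileum by 1.39 and 0.97, unlike NFKBIA.

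Whether PFA acted differently in the 2 tissues was tested in the 10 pigs with both libraries. No member was called, nor was any gene (0.0%, edgeR's quasi-likelihood test, 739 genes (4.93%) and 0 members at an unadjusted p under 0.05, and DESeq2 called none). The difference of the PFA effects was -0.20 for NFKBIA (SE 0.23) and -0.87 for RELB (SE 0.43, unadjusted p = 0.0583, adjusted p = 0.976), the largest of a member. With the GC correction they were -0.11 and -0.32. Libraries of the same pig were paired by an added term for the pig, which left the calls of the members as they were, 8 between the tissues and 0 for this difference.

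The levels of most members moved across pigs with the GC slope of the library. Exon GC content ranged from 40.5% (REL) and 42.2% (CHUK) through 50.2% (NFKB1), 51.5% (TNFAIP3), 57.9% (IKBKB), 60.4% (NFKBIA), 61.3% (NFKB2), 62.3% (IKBKG) and 62.8% (RELA) to 65.7% (RELB), where the median of genes tested was 51.1% in the ileum and 51.3% in the liver. The value of NFKBIA covers its coding exons alone, and those of NFKB1, RELA and CHUK lack any bases before the first coding base. The slope was computed without the members from 11339 of 14300 genes in the ileum (79.3%) and 11021 of 13831 in the liver (79.7%). These shares are under 80%, so as a check of all genes it is void, and it describes the genes with a GC value. Of the 20 relations between a member and the slope, 14 passed correction (Pearson's r, 2-sided permutation test with 100000 draws, Benjamini-Hochberg adjustment over the 20). The slope is itself taken from how genes of high and low GC content move in a library. The share that passes over all genes was not taken, so no trait of the members is read from this count. IKBKG followed the slope most closely, with r = 0.98 (rho = 0.99, adjusted p = 5e-05) over 10 ileum pigs and r = 0.87 (rho = 0.88, adjusted p = 5e-05) over 23 liver pigs. Without the 2 pigs with the most distant slopes r was 0.97 and 0.82. Leaving out such pigs gave the other relations that passed an r of 0.63 to 0.95 in size in the ileum and 0.56 to 0.74 in the liver, with the same signs.

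In the ileum IKBKB (r = 0.95), RELB (r = 0.87), NFKB2 (r = 0.84) and RELA (r = 0.78) also rose with the slope, and CHUK fell with it (r = -0.86). Their rho ranged from 0.77 to 0.95 and was -0.87 for CHUK, and their adjusted permutation p from 5e-05 to 0.0122. In the liver the same 4 genes rose (r = 0.78, 0.72, 0.80 and 0.73), and CHUK (r = -0.72), NFKB1 (r = -0.67) and REL (r = -0.59) fell. Their rho ranged from -0.73 to 0.80, with adjusted permutation p from 5e-05 to 0.00474. NFKBIA (r = 0.38 in the ileum, adjusted permutation p = 0.349, and r = 0.17 in the liver, adjusted permutation p = 0.475) and TNFAIP3 (r = 0.55, adjusted permutation p = 0.136, and r = -0.11, adjusted permutation p = 0.626) did not pass in either tissue. Within diets, as deviations from diet means, the same number of relations passed, 6 in the ileum and 8 in the liver. The 5 PFA pigs of the ileum had a median slope of -0.13 and the control pigs of 0.14. With the GC correction the ileum difference of NFKBIA was -0.45 (unadjusted p = 0.0244), that of RELB -0.48 (unadjusted p = 0.0266) and that of IKBKG -0.20 (unadjusted p = 0.0717), all with an adjusted p of 0.999 (edgeR's quasi-likelihood test).

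**Figure D4:**
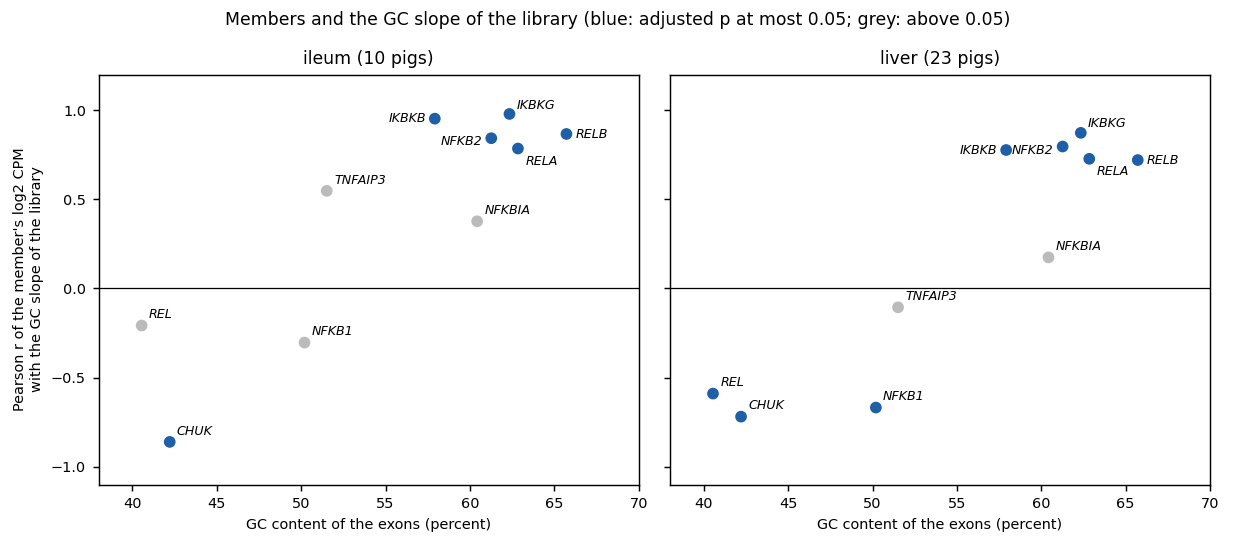
Pearson r between a member's log2 CPM and the GC slope of the library (vertical axis) against the GC content of its exons in percent (horizontal axis), for 10 ileum and 23 liver pigs; blue marks an adjusted p of at most 0.05 and grey one above it. Members with exons of over 57% GC other than NFKBIA lie at r of 0.72 to 0.98, and CHUK, with 42.2%, at -0.86 and -0.72.

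Pairs of members were compared across pigs in the same way, with 45 pairs per tissue. In the ileum 8 pairs passed correction, 7 positive and 1 negative, and in the liver 15 pairs, 9 positive and 6 negative. The share of pairs that pass among all genes was not taken, so no result about the members is read from these counts. NFKB2 and RELB, the partners of the slower branch, were the closest pair in both tissues, with r = 0.96 (rho = 0.96, adjusted permutation p = 0.00045) over 10 ileum pigs and r = 0.87 (rho = 0.89, adjusted permutation p = 0.00045) over 23 liver pigs. Without the 2 pigs with the most distant NFKB2 levels their r was 0.95 and 0.83, and within diets it was 0.94 and 0.85. IKBKB and IKBKG, 2 subunits of 1 complex, had r = 0.92 in the ileum (adjusted permutation p = 0.0009) and 0.73 in the liver (adjusted permutation p = 0.00045). CHUK, the third subunit, went against IKBKG, with r = -0.82 (adjusted permutation p = 0.0183) and -0.70 (adjusted permutation p = 0.0009). The rho of IKBKB and IKBKG was 0.93 and 0.70, and that of IKBKG and CHUK -0.84 and -0.65. Without the 2 most distant pigs r was 0.92 and 0.66 for the first pair and -0.58 and -0.65 for the second.

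After correction of each library for GC content, a setting chosen after seeing the data, 2 pairs in the ileum and 1 in the liver passed. NFKB2 and RELB passed in both, with r = 0.88 (rho = 0.78, adjusted permutation p = 0.0268) in the ileum and r = 0.73 (rho = 0.70, adjusted permutation p = 0.0036) in the liver. The other pair was REL and IKBKB in the ileum (r = 0.90, rho = 0.82, adjusted permutation p = 0.0268). Without the 2 most distant pigs r was 0.81 and 0.64 for NFKB2 and RELB and 0.73 for REL and IKBKB. By the ranks, neither ileum pair passed (adjusted permutation p = 0.14 for both). NFKBIA and TNFAIP3, both targets of the pathway, had r = 0.57 in the ileum (adjusted permutation p = 0.19) and 0.44 in the liver (adjusted permutation p = 0.0731).

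**Figure D5:**
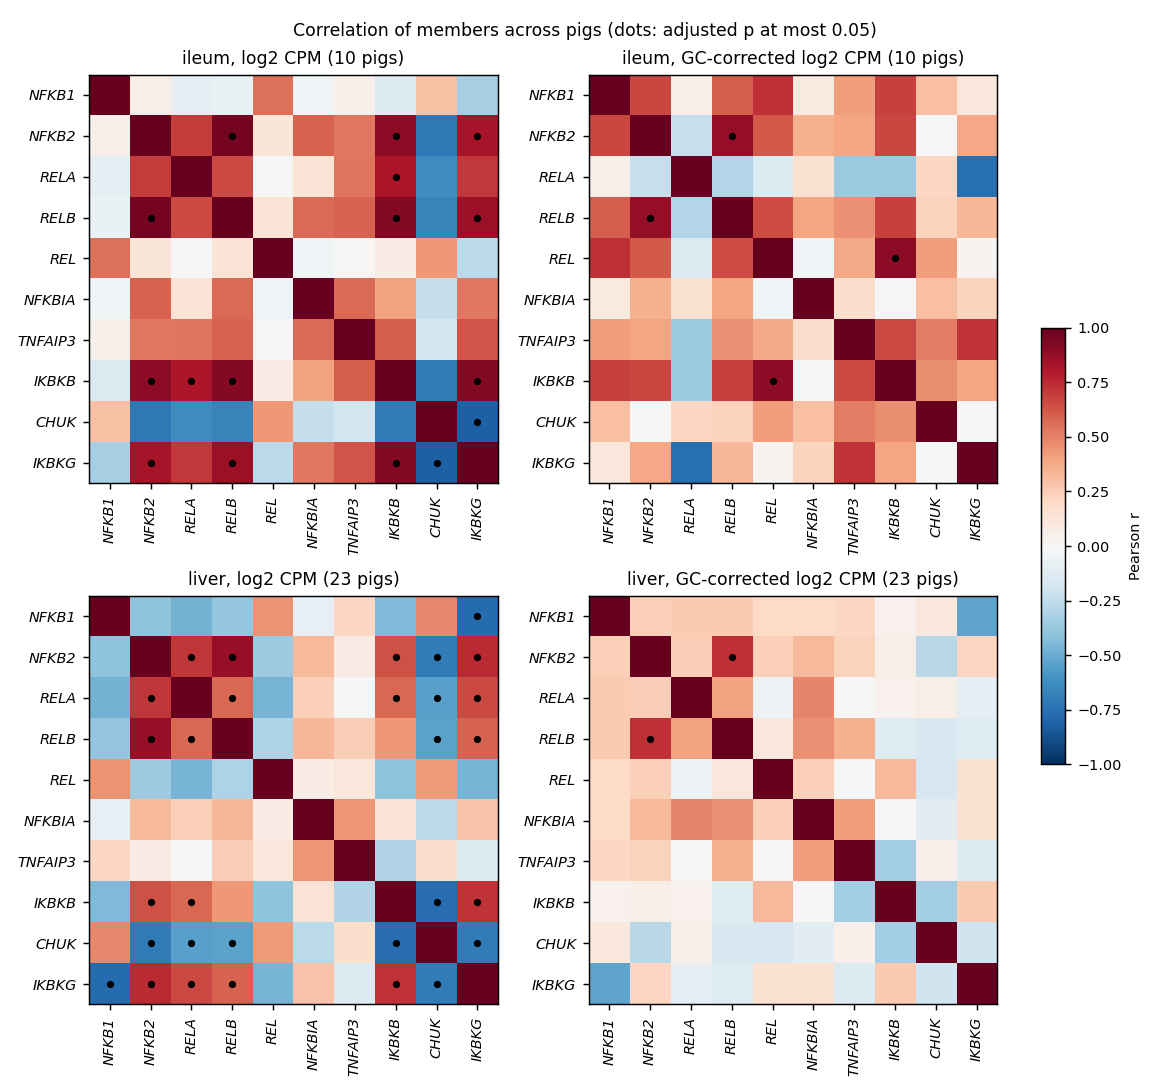
Pearson r (color, from -1 in blue to 1 in red) between members across 10 ileum pigs (top) and 23 liver pigs (bottom), from log2 CPM (left) and after correction for GC content (right); dots mark pairs with an adjusted p of at most 0.05. The dots number 8 and 15 on the left and 2 and 1 on the right, and NFKB2 with RELB has a dot in all 4 panels.

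The genes most like the 2 inhibitors were sought by the r of deviations from diet means over all genes tested. For NFKBIA in the liver (23 pigs) they were ENSSSCG00000038406 (r = 0.79), the stress-response gene GADD45B (r = 0.70) and DYNLRB2 (r = 0.66), and for TNFAIP3 HGF (r = 0.68), PKIA (r = 0.67) and CD2AP (r = 0.67). In the ileum (10 pigs) they were RANGRF (r = 0.93), PHF10 (r = 0.88) and REC8 (r = 0.87) for NFKBIA and ENSSSCG00000029414 (r = 0.95), EZR (r = 0.93) and EGR3 (r = 0.92) for TNFAIP3. The lists of the 2 tissues had no gene in common. With so many genes and few pigs the highest r is large by selection, and it is given as a description.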

How the data were processed

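The authors aligned reads from poly(A) libraries with STAR 2.6.1d to Sscrofa11.1 and deposited HTSeq counts of read pairs per Ensembl gene, whole numbers without normalization. The strand option and annotation release were not given in the sources used here. Read pairs on no or several genes (13.5% to 36.7% per library) were left out of library sizes. Symbols were matched for 14857 of 25880 genes. Counts were tested with edgeR 4.0.16 in R 4.3.3 (TMM, filterByExpr, quasi-likelihood test, two-sided, adjusted p at most 0.05, log2 CPM with a prior count of 2), with 10 ileum, 23 liver and, between tissues, 20 libraries. Each standard error was worked back from that test, as the size of the log2 fold change divided by the square root of the F value. Alternatives were DESeq2 1.42.0, other scaling and filters, a GC correction (lowess, span 0.5), the full set of 24 liver libraries, a term for how a library was titled, 2 diets alone, a pig block and leaving out each pig. Ileum and liver libraries share a pig by their labels, and their deviations correlated at -0.18 to 0.46. The best match of the ileum library was the liver of the same pig in C-80, C-110, P-107 and P-134, and of another pig in the rest. Y-linked counts matched in 10 of 10 pigs, which speaks to the sex of a pair and not to the single animal. No libraries of a group were alike within counting noise. The steps were tested on simulated counts. All members are described in every comparison; of each pathway list the called genes, up to 6, or otherwise those with the smallest p, were eligible to be named, and for NFKBIA and TNFAIP3 the 3 genes with the highest r. Members, lists and tests were chosen with earlier results of these data known. Replicates are single pigs; pens are not replicated.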

Additional observations from a re-analysis of the deposited data

Results flagged for a closer look

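IKBKB in the ileum of pig P-134 stood at 58.6 CPM, far from the other PFA pigs, whose highest level was 43.8 CPM and whose lowest was 37.9 CPM. It was the single flag among 60 groups of member values examined for an outlying pig, where chance gives about 1 in 20 groups. The GC slope of this library, 0.37, was the highest of the ileum, and that of P-138, -0.37, was as steep in the other direction. Without pig P-134 the log2 fold change of IKBKB between PFA and control was -0.27 and without P-138 -0.099, beside -0.15 with both. No member's effect differed between diets or tissues by a test of the difference itself.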

How the results depend on the processing

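Values are log2 fold changes or counts of genes called, and the causes were not tested unless given. Single genes kept direction and side of the threshold in 1895 of 1974 alternatives and in 4372 of 4626 with 1 pig left out. Most of these were genes not called in the main fit, which could hardly change side, so the counts do not show that calls are stable. Of the 12 pathway genes called for the oil effect, 9 were lost with the GC correction. Headline results, counted apart from single genes, moved in 25 of 166 alternatives and in 48 of 382 with 1 pig left out. With DESeq2, 4 genes were called for PFA in the ileum and, in the liver, 43 for PFA, 1079 for OO and 1370 for OO + PFA against control, 31 for OO + PFA against OO, 150 for the interaction and 1776 across diets. In edgeR with DESeq2 size factors, or with no filter, the interaction had 2. All 24 libraries gave 224 for OO, 1530 for OO + PFA, 1 for OO + PFA against OO and 1113 across diets, 1 of them a member. Fits of 2 diets alone gave 194 and 1690 for OO and OO + PFA against control. Correction for GC content gave 810 for OO, 11 for OO + PFA against OO, 6 for the interaction, 803 across diets and 1065 for the oil effect, with 1 member called there and 1 for OO + PFA against control, and left 2 correlated pairs in the ileum and 1 in the liver.

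The GC correction turned the sign of the ileum PFA values of NFKB1 (-0.042), RELA (0.20) and CHUK (-0.0094), and NFKB1 was at -0.033 over the same genes uncorrected. In the liver it turned REL (-0.060) for PFA, RELB (-0.38) for OO, NFKB2 (-0.13), RELA (-0.51), RELB (-0.32), REL (0.0067), IKBKB (-0.019) and IKBKG (-0.039) for OO + PFA against control and NFKB1 (0.00054), RELA (-0.18), IKBKB (-0.039), CHUK (0.0084) and RIPK1 (-0.056) against OO. It turned the oil effect of NFKB2 (-0.12), RELA (-0.36), RELB (-0.19), REL (0.075), CHUK (0.018) and RBCK1 (-0.015), the interaction of RELA (-0.051), and ITCH (-0.090) between the tissues. For OO + PFA against control NFKBIA turned to 0.0052 with no filter, 0.0050 with 2 diets alone, 0.0044 with a minimum of 10 counts and 0.0021 with a title term, and CHUK to -0.012 with DESeq2, -0.012 with its size factors and -0.13 with all 24 libraries. The oil effect of REL turned to 0.0030 with that minimum and 0.0055 with the title term. The replicate block of the pig paired the libraries, changed no member's call, and turned the difference of PFA effects in IKBKG to -0.053.

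With single pigs left out, genes called ranged from 167 to 1325 for OO, from 191 to 1127 for OO + PFA, from 0 to 7 for OO + PFA against OO, from 837 to 2672 for the oil effect, from 0 to 5 for the interaction and from 297 to 1450 across diets, and members called from 0 to 1 for the oil effect and from 5 to 9 between tissues. Signs turned in the ileum for NFKB1 (-0.049 to 0.055), RELA (-0.13 to 0.042), REL (-0.19 to 0.094) and TNFRSF13C (-2.15 to 0.38), and for PFA in the liver for TNFAIP3 (-0.042 to 0.17). For OO they turned in NFKB1 (-0.087 to 0.0096), NFKB2 (-0.19 to 0.021), RELB (-0.14 to 0.33), IKBKB (-0.015 to 0.13), IKBKG (-0.20 to 0.13) and CHUK (-0.0063 to 0.16), for OO + PFA against control in REL (-0.10 to 0.024), NFKBIA (-0.14 to 0.13) and CHUK (-0.032 to 0.088), and against OO in IKBKB (-0.055 to 0.14) and CHUK (-0.15 to 0.021). The oil effect turned in REL (-0.059 to 0.056) and NFKBIA (-0.093 to 0.045), and the difference of PFA effects between tissues in NFKB1 (-0.15 to 0.019), RELA (-0.014 to 0.21), IKBKB (-0.087 to 0.090), IKBKG (-0.23 to 0.30), CHUK (-0.26 to 0.036) and TNFRSF13C (-2.32 to 0.41). Members had at least 53 counts in every library.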
